A study of Sus scrofa and Bos taurus with 31 samples.

Results

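The regions described here are stretches of the pig genome that were open in exactly 7 of the 8 tissues profiled and not called open in the remaining one. Peaks of all 16 pig ATAC-seq lists that shared at least 1 bp were merged into 533944 regions, and a region counted as open in a tissue when the lists of both animals held a peak in it. Of the 284109 regions open in at least 1 tissue, 9747 were open in exactly 7, which is 3.43%. For comparison, 16833 regions were open in all 8 tissues, 11172 in 6 and 133861 in 1. The members were chosen by the presence of peaks in these same lists, so the presence and height of those peaks are described without a test.

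The tissues came from 2 castrated male Yorkshire pigs, P348 and P350, which were littermates of 6 months. Each gave 3 brain tissues (cerebellum, hypothalamus and cerebral cortex), and also spleen, skeletal muscle, lung, liver and adipose, so every tissue had 1 library per animal, made from thawed nuclei of whole tissue. No sample was treated. Whole tissue mixes cell types, so fewer cells of a type and less accessible chromatin per cell cannot be told apart.

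ATAC-seq uses a transposase that inserts into DNA not wrapped tightly in nucleosomes, and peaks of insertion mark promoters, enhancers and insulators. Promoters of genes that every cell uses are commonly accessible everywhere, whereas most enhancers are accessible in few cell types. CTCF is a DNA-binding protein that marks insulators and the anchors of chromatin loops, and it occupies many of the same sites across tissues. A region open nearly everywhere but closed in 1 tissue lies between these patterns.

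The sequences below show the region lacking each of 5 tissues that had no peak in either animal there and the highest minimum fold enrichment in the other 14 libraries, outside exons and away from coding transcription start sites (TSS). Each is 300 bases of Sscrofa11.1 (RefSeq), plus strand, centred on the stretch shared by most lists, and it can reach past the edge of the region. Letters of matched motifs are in capitals, and 10 motifs were searched on both strands. These are the CTCF motif in the adipose window, the AP-1 motif TGANTCA in the hypothalamus window and the GC box GGGCGG in the spleen window. The cerebellum and skeletal muscle windows held no match to any of the 10 motifs.
lacking adipose, chr15:8680750-8681049: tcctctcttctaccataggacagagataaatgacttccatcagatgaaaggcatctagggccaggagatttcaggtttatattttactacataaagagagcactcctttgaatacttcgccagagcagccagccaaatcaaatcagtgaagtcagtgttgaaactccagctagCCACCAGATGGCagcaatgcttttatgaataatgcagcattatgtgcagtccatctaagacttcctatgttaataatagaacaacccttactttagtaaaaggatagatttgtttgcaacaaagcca
lacking cerebellum, chr7:21213945-21214244: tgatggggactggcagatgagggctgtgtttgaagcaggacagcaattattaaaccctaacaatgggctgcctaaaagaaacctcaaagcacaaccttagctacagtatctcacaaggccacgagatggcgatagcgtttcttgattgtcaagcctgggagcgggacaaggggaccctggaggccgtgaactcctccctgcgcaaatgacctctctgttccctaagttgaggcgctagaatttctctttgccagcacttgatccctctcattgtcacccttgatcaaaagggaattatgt
lacking hypothalamus, chr2:61289751-61290050: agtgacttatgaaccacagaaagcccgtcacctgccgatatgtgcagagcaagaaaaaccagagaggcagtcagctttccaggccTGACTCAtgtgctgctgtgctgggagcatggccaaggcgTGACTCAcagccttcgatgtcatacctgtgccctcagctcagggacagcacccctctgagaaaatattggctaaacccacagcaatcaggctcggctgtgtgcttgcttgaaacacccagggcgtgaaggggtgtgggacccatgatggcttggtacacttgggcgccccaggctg
lacking skeletal muscle, chr9:63448361-63448660: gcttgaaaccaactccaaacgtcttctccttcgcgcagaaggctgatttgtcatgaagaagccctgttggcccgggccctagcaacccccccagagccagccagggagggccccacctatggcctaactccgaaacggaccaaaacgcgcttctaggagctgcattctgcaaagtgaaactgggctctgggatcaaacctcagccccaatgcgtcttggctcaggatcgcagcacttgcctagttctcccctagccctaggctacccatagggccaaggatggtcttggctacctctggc
lacking spleen, chr6:30170608-30170907: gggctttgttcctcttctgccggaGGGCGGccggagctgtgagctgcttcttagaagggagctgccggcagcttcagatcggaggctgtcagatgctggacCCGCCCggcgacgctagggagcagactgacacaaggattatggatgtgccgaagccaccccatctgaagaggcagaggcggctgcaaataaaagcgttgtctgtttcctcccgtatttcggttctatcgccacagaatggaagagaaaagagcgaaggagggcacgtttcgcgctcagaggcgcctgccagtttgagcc

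The region lacking adipose, chr15:8680754-8681907, lay in an intron of ARHGAP15, which encodes an activator of Rac GTP hydrolysis, 58783 bp from the nearest coding TSS. Its fold enrichment over background, as the deposited lists give it, ran from 4.65 to 11.2 in the 14 libraries of the other tissues, with a median of 5.70. The 2 liver libraries were highest there, at 10.8 and 11.2, and both adipose lists held no peak. The region lacking cerebellum, chr7:21213914-21214263, was intergenic and 350 bp wide, and its fold ran from 4.89 in hypothalamus P348 to 12.3 in liver P348 with a median of 6.09. The region lacking hypothalamus, chr2:61289078-61290204, was intergenic, 16041 bp from the nearest TSS, that of KLF2, a transcription factor of endothelial and immune cells. Its fold ran from 3.53 to 9.59 with a median of 4.50, and both skeletal muscle libraries, at 9.59 and 9.01, stood above the other 12.

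The region lacking skeletal muscle, chr9:63448256-63448675, was intergenic, 420 bp wide and 171553 bp from the nearest coding TSS, that of MROH9. Its fold ran from 8.97 in cerebral cortex P348 to 17.7 in cerebellum P350 with a median of 12.7, and it was thus the steepest of the 8 such regions while neither muscle list held a peak. The region lacking spleen, chr6:30169723-30171118, was intergenic, 33469 bp from the TSS of IRX6, a homeobox transcription factor. Its fold ran from 4.87 in liver P348 to 12.5 in hypothalamus P350, with a median of 6.53. Among the regions chosen in the same way for the other 3 tissues, the lowest fold was 2.94 where cerebral cortex was lacking, 3.76 where liver was lacking and 2.67 where lung was lacking.

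The tissues were lacked very unequally. Cerebellum was missing from 2928 members, skeletal muscle from 2446 and spleen from 1462, and these 3 tissues accounted for 70.1% of all members. Adipose was missing from 1224 members and hypothalamus from 1072. Liver was missing from 399 (4.09%), cerebral cortex from 162 (1.66%) and lung from 54 (0.554%). With all libraries, the brain tissues thus stood apart from each other, with cerebellum first and cerebral cortex next to last. The first place rested on 1 library and on the rule. Without cerebellum P348, cerebellum was missing from 7.49% of members and skeletal muscle from 28.5%. When either list made a tissue open, the shares were 14.6% and 39.9%. Below cerebellum the order also moved with the peaks used. With peaks of q under 0.01, adipose was missing from 26.8% of members and skeletal muscle from 8.19%. With every list cut to the length of the shortest, the shares were 13.8% and 9.91%.

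**Figure D1:**
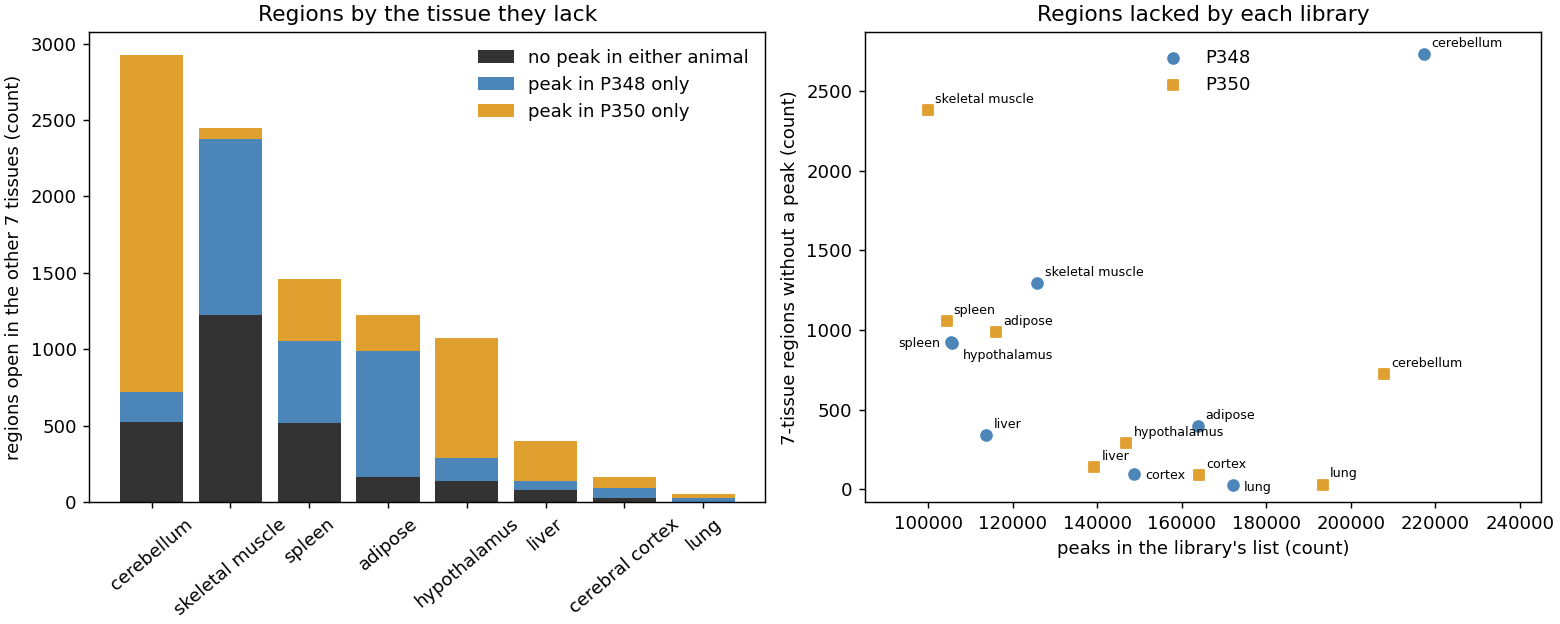
Left, number of 7-tissue regions by the tissue they lack, stacked by whether that tissue had no peak, a peak in P348 only or a peak in P350 only. Right, number of 7-tissue regions without a peak in each library against the length of its peak list; cerebellum P348 combines the longest list, 217308 peaks, with the highest count, 2733.

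A missing tissue seldom meant that both animals lacked the peak. In 2686 members (27.6%) neither list of the missing tissue held a peak, and in 7061 (72.4%) 1 of its 2 lists did. Skeletal muscle had the highest share without any peak, at 50.1% (1225 of 2446), followed by spleen at 35.5% (519 of 1462). The share was 19.8% for liver, 18.0% for cerebellum, 16.7% for cerebral cortex, 13.5% for adipose, 13.1% for hypothalamus and 5.56% for lung, where it was 3 of 54. Regions just outside the rule held as many peaks: 4645 of the 11172 regions open in 6 tissues had peaks in 14 lists, like the 2686 members without a peak in the missing tissue.

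Where 1 animal had the peak, it was often the same animal throughout a tissue. In cerebellum, 2205 members had a peak in P350 only and 195 in P348 only. In hypothalamus the counts were 781 and 151, and in liver 261 and 59. Skeletal muscle went the other way, with 68 in P350 only and 1153 in P348 only, as did adipose, with 235 and 824. Spleen (407 and 536), cerebral cortex (70 and 65) and lung (23 and 28) were closer to even. Over the 8 tissues the log2 ratio of P350 only over P348 only averaged 0.19 ± 2.46 (SD, n = 8), and 4 tissues were on each side. As these peaks chose the members, the ratio is a description.

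The libraries lacking most members were cerebellum P348, with 2733 (28.0%), and skeletal muscle P350, with 2378 (24.4%). They were opposite in depth of calling: skeletal muscle P350 had the shortest list of all, 99960 peaks, and cerebellum P348 the longest, 217308. Lung P348 and lung P350 lacked 26 and 31. Across tissues, Spearman's rho between the number of members lacking a tissue and the mean length of its lists was -0.24 over 8 tissues. Without cerebellum, which had the longest lists and was missing most often, it was -0.86 over 7 tissues. All lists came from the same 2 animals. Both quantities were taken from the lists that chose the members, and a shorter list can leave more regions without a peak. The rho values are therefore descriptions, and whether list length accounts for a missing tissue was not tested. With cerebellum judged by P350 alone, members lacking it numbered 724 of 9664, and skeletal muscle, with 2750, was missing most often. With skeletal muscle judged by P348 alone, members lacking it numbered 1293 of 10098.

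Peak heights in the 7 open tissues were modest. The lowest fold among the 14 open libraries had a median of 2.56 over the members and was 12.1 at most, and the median fold had a median of 3.44. In the regions open in all 8 tissues the lowest of 16 folds had a median of 3.04. By library, the median fold in members ran from 2.90 in adipose P348 to 4.34 in liver P348, and in the 8-tissue regions from 3.58 to 6.78 in the same libraries. The peaks of the missing tissue present in 1 list had median folds from 2.63 in skeletal muscle to 3.38 in hypothalamus. Membership moved with the limit on peaks, and 5479 members were found with peaks of q under 0.01. With regions and members made within each animal and the pair averaged as a block, there were 14702.

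Members lay away from promoters more often than the 8-tissue regions and nearer to them than the 1-tissue regions. Among the members, 2006 (20.6%, 95% Wilson interval 19.8 to 21.4, counting error only) were TSS proximal, that is within 2 kb of a coding TSS, against 8.19% of all regions open in at least 1 tissue. A further 308 (3.16%) had a non-coding TSS within 2 kb, 3845 (39.4%) elsewhere in a gene body and 3588 (36.8%) intergenic. The TSS proximal share was 62.1% in 8-tissue regions, 11.3% in 6-tissue regions and 2.91% in 1-tissue regions. Of the TSS proximal members, 1661 (82.8%) covered the TSS itself, and the other members were a median of 39377 bp away.

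**Figure D2:**
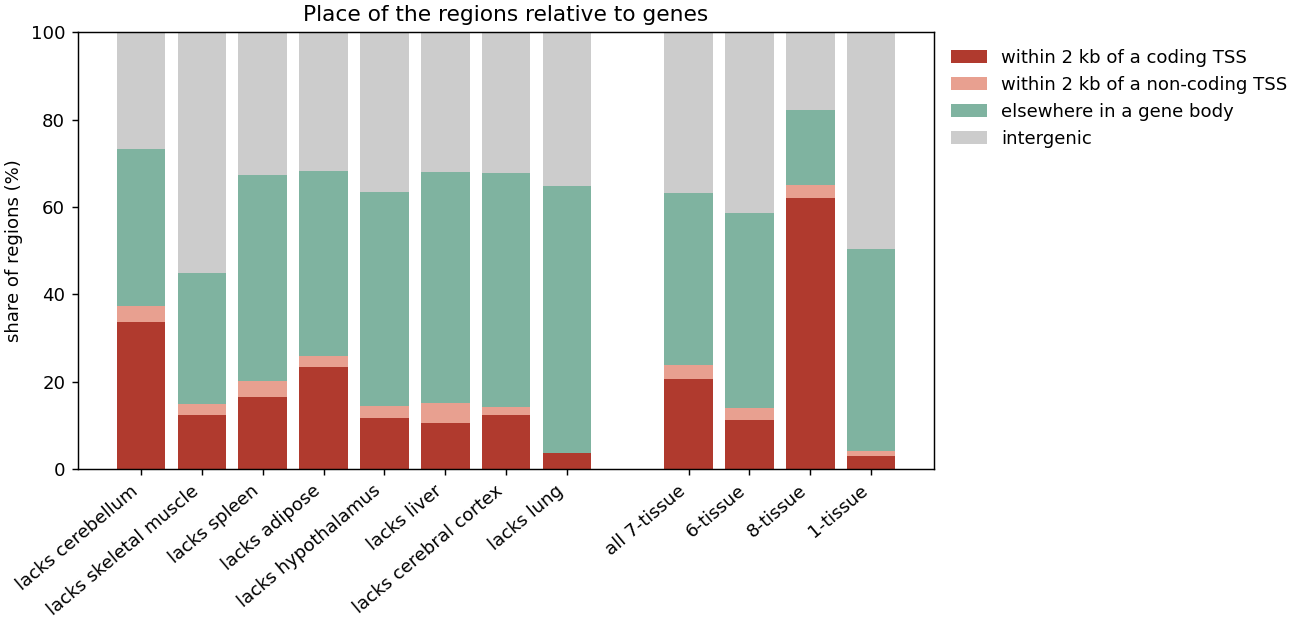
Share of regions, in percent, by place relative to annotated genes, for the 7-tissue regions by the tissue they lack (left 8 bars) and for all 7-tissue, 6-tissue, 8-tissue and 1-tissue regions (right 4 bars). The coding TSS share is 33.6% where cerebellum is lacking and 62.1% in the 8-tissue regions, and the intergenic share is 55.1% where skeletal muscle is lacking.

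The missing tissue went with the place. Members lacking cerebellum were TSS proximal in 33.6% (984 of 2928, interval 31.9 to 35.3) and those lacking adipose in 23.4% (287 of 1224, 21.2 to 25.9). Those lacking spleen followed at 16.6%, skeletal muscle at 12.4%, cerebral cortex at 12.3%, hypothalamus at 11.7%, liver at 10.5% and lung at 3.70% (2 of 54). With all libraries, the intervals of cerebellum and adipose do not overlap those of any other tissue, whereas those of skeletal muscle, cerebral cortex, hypothalamus and liver overlap each other. These intervals count regions and hold no spread between animals. The top place of cerebellum rested on 1 library: without cerebellum P348 its share was 19.2% of 724 members, below adipose at 25.8%. The place of adipose moved with the peaks used. With q under 0.01 its share was 36.4%, below spleen at 41.1%, and with lists of equal length 28.4%, below cerebral cortex at 41.3%. Members lacking skeletal muscle were intergenic in 55.1% (53.1 to 57.1), against 26.7% to 36.6% in the other 7 groups.

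Per tissue, the TSS proximal share of members exceeded that of regions open only in the same tissue by 12.27 ± 9.71 percentage points (SD, n = 8 tissues, means 15.5% and 3.26%), in 8 of 8 tissues (exact sign-flip permutation test, adjusted p = 0.0215). It was below the common share of the 8-tissue regions in 8 of 8 tissues (difference -46.53 ± 9.18 points, exact test, adjusted p = 0.0215). Against regions open in 6 tissues and closed in the same tissue, the members were higher by 4.79 ± 6.63 points in 7 of 8 tissues, which did not pass (exact test, adjusted p = 0.110). The last difference passed without cerebellum P348, at 4.90 points (exact test, adjusted p = 0.0286). It also passed with the animals as a replicate block, at 4.50 points (exact test, adjusted over fewer tests, adjusted p = 0.00911). Each 6-tissue region enters under 2 tissues, and all tissues share 2 animals. The distance to a TSS was taken from the edge of the region, so a wider region comes within 2 kb more easily. Median widths were 2037 bp in members, 823 bp in 1-tissue, 1937 bp in 6-tissue and 1829 bp in 8-tissue regions. The part of width in these differences was not tested.

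Members with no peak in the missing tissue were TSS proximal less often than members with a peak in 1 list in 6 of 8 tissues (difference -5.55 ± 6.34 points, exact test, adjusted p = 0.0859). The gap was widest in cerebellum, at 19.9% without a peak and 36.6% with 1. In skeletal muscle the shares were 8.16% and 16.7%, and in spleen 13.1% and 18.5%. Adipose went the other way, at 26.1% and 23.0%. Without the cerebellum P348 library, 16% of all members were TSS proximal.

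Base composition ordered the 1-tissue, 7-tissue and 8-tissue regions as the TSS proximal share did, but not the groups by missing tissue. GC content of the 300 bp windows averaged 59.6% in members and 64.7% in the 8-tissue regions, whereas it was 49.1% in the 1-tissue regions. By missing tissue it was highest for cerebellum, 62.4% ± 9.13 (SD over 2928 regions), and cerebral cortex, 62.3% ± 6.66, and lowest for hypothalamus, 55.7% ± 7.25, and lung, 55.5% ± 6.86. Members exceeded the regions open only in the same tissue by 8.90 ± 4.99 points in 8 of 8 tissues (exact sign-flip test, adjusted p = 0.0215). They were below the 8-tissue regions in 8 of 8 tissues (difference -5.83 ± 2.58, exact test, adjusted p = 0.0215), and among regions beyond 2 kb of a coding TSS this difference was -1.61 (exact test, adjusted p = 0.129). Members with no peak in the missing tissue minus those with a peak in 1 list gave -1.14 ± 2.48 points (exact test, adjusted p = 0.322).

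The CTCF motif was found in 7.89% of member windows, against 1.96% of the windows of all regions open in at least 1 tissue and 5.69% in the 8-tissue regions. Per tissue, the members exceeded the regions open only in that tissue by 6.29 ± 5.36 points in 7 of 8 tissues (exact sign-flip test, adjusted p = 0.0344), and liver was the exception, at 1.75% and 1.97%. The share depended on which tissue was missing. It was 13.9% for members lacking adipose (170 of 1224), 13.3% for hypothalamus (143 of 1072) and 9.39% for cerebellum (275 of 2928). It was 5.60% for skeletal muscle, 2.47% for cerebral cortex, 1.98% for spleen (29 of 1462) and 1.75% for liver (7 of 399), and 4 of 54 members lacking lung held it. The highest shares depended on the animal: with P348 alone the adipose share was 5.75% and that of hypothalamus 13%, and with P350 alone they were 15.1% and 3.89%. When either list made a tissue open, hypothalamus was at 4.28%. The cerebellum share was 8.78% with P348 alone and 9.31% with P350 alone.

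Promoter windows seldom held the motif, at 2.49% in TSS proximal members and 1.16% in TSS proximal 8-tissue regions, so the shares were also read beyond 2 kb of a coding TSS. There, 719 of 7741 members (9.29%) held it, against 13.1% of the 8-tissue regions, 7.04% of the 6-tissue regions and 0.504% of the 1-tissue regions. The difference between members and 8-tissue regions was 1.29 ± 4.91 points over all regions and -5.06 points beyond 2 kb (exact tests, adjusted p = 0.563 and 0.10), so its sign depended on the promoters. With both animals, the shares beyond 2 kb were 17.2% for adipose (interval 14.9 to 19.7), 14.3% for hypothalamus (12.2 to 16.6) and 12.8% for cerebellum (11.4 to 14.4), and the dependence on the animal was not computed there. The intervals of skeletal muscle (5.27 to 7.31) and spleen (1.53 to 3.20), which hold counting error only, lay below these 3.

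**Figure D3:**
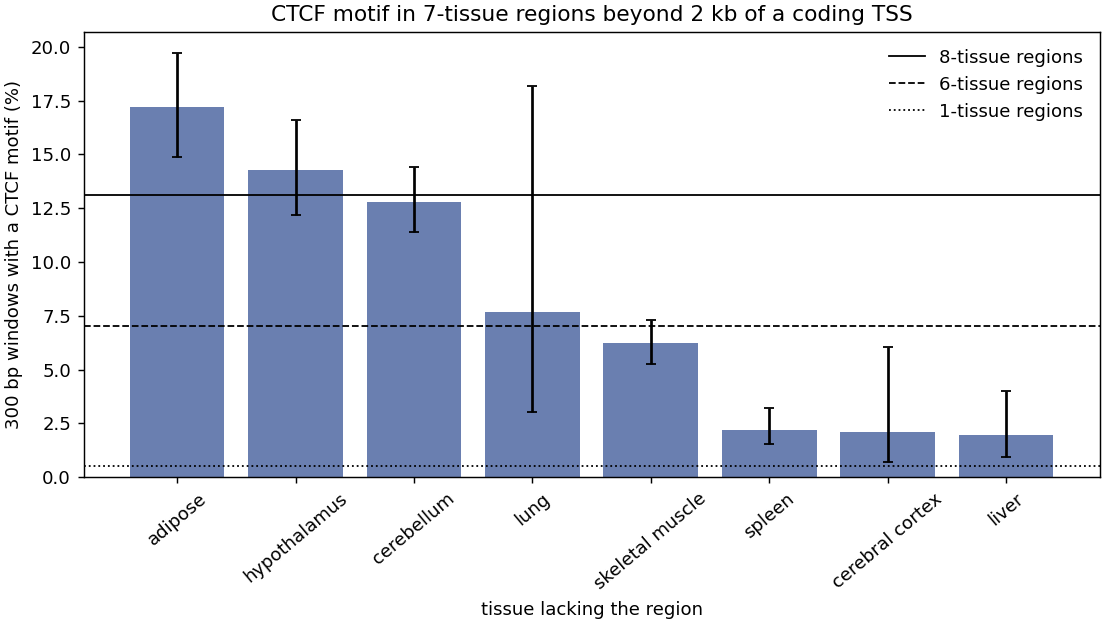
Share, in percent, of 300 bp windows with a CTCF motif among 7-tissue regions more than 2 kb from a coding TSS, by the tissue they lack, with 95% Wilson intervals; lines mark the 8-tissue, 6-tissue and 1-tissue regions beyond 2 kb. The adipose, hypothalamus and cerebellum bars, at 17.2%, 14.3% and 12.8%, stand above the 6-tissue line at 7.04%, and the spleen bar is at 2.21%.

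Whether the missing tissue had a peak in 1 list also moved with the motif in some tissues. Among members lacking hypothalamus, 14.7% with a peak in 1 list and 4.29% with none held it. In adipose the shares were 14.5% and 9.70%, in skeletal muscle 7.13% and 4.08%, and in spleen 2.65% and 0.771%. The share was higher with 1 list in 7 of 8 tissues, and lung, where 1 of 3 members without a peak held the motif, was the exception. With lung included the mean difference was 0.27 ± 11.40 points (exact test, adjusted p = 1.00). Where the lists were cut to equal length it was -5.73 (exact test, adjusted p = 0.0172).

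Of the other motifs, the GC box GGGCGG, bound by SP factors, was in 33.4% of members, 59.5% of 8-tissue and 8.37% of 1-tissue regions, against 15.8% of all open regions. It was most frequent where cerebellum was lacking, 47.2%, and least where lung was, 16.7%. The ETS motif CCGGAAG was in 5.54% of members and 12.8% of 8-tissue regions (all open regions, 2.77%), and in 9.19% of members lacking cerebellum. The AP-1 motif TGANTCA ran the other way, at 9.27% of members and 5.44% of 8-tissue regions against 11.7% of all open regions. Within the members it was highest where hypothalamus (14.8%), liver (13.8%) and spleen (13.1%) were lacking, and lowest for skeletal muscle, 5.48%. The PU.1 motif GAGGAAGT, of a factor of myeloid and B cells, was in 4.54% of members lacking cerebellum and 1.64% of those lacking spleen (all open regions, 2.68%). The spleen share was near those of skeletal muscle, 1.84%, and of cerebral cortex and lung, 1.85% each. NRF1 (TGCGCATGC), CRE (TGACGTCA), TEAD (ACATTCC), FOX (TGTTTAC) and MEF2 motifs were in 0.718%, 0.790%, 3.10%, 2.57% and 0.523% of members, against 0.257%, 0.471%, 4.05%, 3.55% and 0.730% of all open regions.

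Promoters closed in 1 tissue were the smaller, gene-level side of the set. A gene was counted when both lists of 7 tissues held a peak within 2 kb of one of its coding TSS, neither list of the remaining tissue did, and a member lacking that tissue lay within 2 kb. Of 20674 coding genes, 244 (1.18%) had this pattern of peaks and 199 of them also a member, which is 0.963%. By contrast, 11314 genes (54.7%) had peaks of both lists of all 8 tissues. Of the 2084 genes with a member near a TSS, 478 (22.9%) had such peaks of all 8 tissues, counted over all coding TSS of the gene. Only 199 of these 2084 genes met the rule for a closed promoter. A 7-tissue region near a TSS thus seldom came with a promoter counted as closed. The closed tissue was skeletal muscle for 78 genes, cerebellum for 62, spleen for 37, adipose for 17, hypothalamus for 4 and cerebral cortex for 1, and no gene was closed in liver or lung. With each animal taken alone as a block and the pair averaged, the count was 1330.

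**Figure D4:**
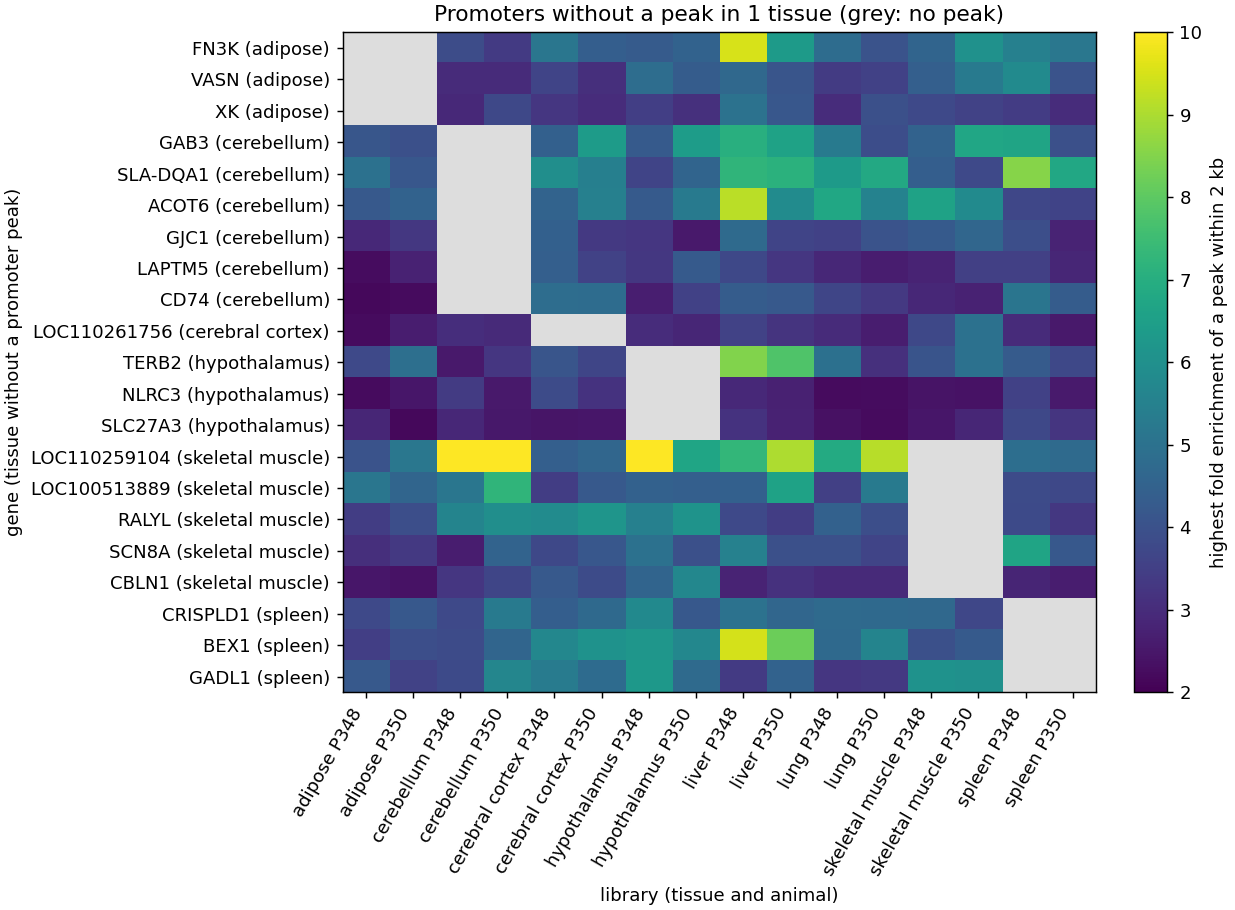
Highest fold enrichment of a peak within 2 kb of a coding TSS, by library, for the genes named as closed in 1 tissue (tissue in brackets). Grey cells are libraries without a peak, and the colour scale ends at 10; among all cells LOC110259104 in hypothalamus P348 is highest, at 14.

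The 6 genes named for cerebellum include 3 that had the highest minima and 3 of the gene lists. GAB3, an adaptor protein of cytokine receptor signalling (X:125158148-125209080), had folds from 3.90 to 7.06 with a median of 4.90 in the other 14 libraries. It was highest in liver P348, and the 2 spleen libraries differed, at 6.66 in P348 and 3.95 in P350. SLA-DQA1, the alpha chain of an MHC class II molecule (7:24953472-24959313), ran from 3.63 to 8.54 with a median of 5.70 and was highest in spleen P348. SLA genes have close copies, so reads could be shared among them. ACOT6, an acyl-CoA thioesterase, ran from 3.62 to 9.18 (median 5.36) and was highest in liver P348. CD74, the invariant chain of MHC class II, ran from 2.2 to 5.12 (median 3.62), lowest in adipose P348 and highest in spleen P348. LAPTM5, a lysosomal membrane protein of blood cells, ran from 2.25 to 4.43 (median 3.28), and GJC1, a gap junction connexin, from 2.56 to 4.77 (median 3.60).

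For skeletal muscle, 5 genes are named. RALYL, an RNA-binding protein (4:51785372-52559659), ran from 3.30 to 6.17 with a median of 4.20, and all 6 brain libraries, from 5.48 to 6.17, were above the 8 others, which reached 4.48. SCN8A, a voltage-gated sodium channel of neurons (5:16977468-17173831), ran from 2.64 in cerebellum P348 to 6.68 in spleen P348 (median 3.95), so the brain libraries did not stand apart. CBLN1, a synaptic organiser of cerebellar granule cells and one of the 3 cerebellum markers used, ran from 2.38 to 5.71 (median 3.06) and was highest in hypothalamus P350. The highest minima in this group belonged to LOC110259104 (4.05) and LOC100513889 (3.45), unnamed genes on unplaced scaffolds.

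Spleen lacked promoter peaks of CRISPLD1, a secreted cysteine-rich protein, of BEX1, a brain-expressed signalling adaptor on the X chromosome, and of GADL1, a decarboxylase of amino acids. CRISPLD1 ran from 3.70 to 5.81 (median 4.67), a narrow range over the 7 other tissues. BEX1 ran from 3.49 to 9.48 (median 5.16), and both liver libraries, at 9.48 and 8.19, were above the rest. GADL1 ran from 3.28 to 6.28 (median 4.65), and both muscle libraries were high, at 6.07 and 6.02. In adipose, FN3K, a kinase that removes sugars from proteins, ran from 3.36 to 9.51 (median 4.71), VASN, a membrane protein that binds TGF-beta, from 2.99 to 5.84 (median 4.08), and XK, a membrane protein of red cells and nerve, from 2.91 to 5.03 (median 3.45). In FN3K the liver P348 library was far above the next, liver P350 at 6.37.

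In hypothalamus, TERB2, a protein of meiotic telomeres, ran from 2.55 to 8.48 (median 4.10), with both liver libraries highest. NLRC3, a negative regulator of innate immune signalling, ran from 2.23 to 3.84 (median 2.56), and SLC27A3, of the fatty acid transport protein family, from 2.2 to 3.74 (median 2.63). The gene closed in cerebral cortex, LOC110261756, ran from 2.23 to 4.98 (median 2.98). These 4 and XK, CD74, GJC1, SCN8A and CBLN1 were no longer counted with peaks of q under 0.01 only, and of the 21 genes named LOC110259104 alone was counted with q under 0.0001.

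Genes of 11 lists (333 in the annotation) were looked up, and 4 of them (1.2%) had a promoter closed in 1 tissue, against 0.963% of all coding genes by the same count. These were CD74 of 27 antigen presentation and interferon genes, GJC1 of 29 cell junction genes, LAPTM5 of 30 leukocyte genes and SCN8A of 33 genes of neuronal excitability and synapses. None of 28 housekeeping, 32 extracellular matrix, 27 growth factor receptor, 25 Hippo, 33 lipid and nuclear receptor, 32 TGF-beta and BMP, or 37 Wnt and Notch genes was closed in 1 tissue. A 7-tissue region lay within 2 kb of a TSS of 55 of the 333 genes (16.5%), against 10.1% of all coding genes. By list it ran from 2 of 32 TGF-beta and BMP genes to 10 of 33 neuronal genes. Peaks of both lists of all 8 tissues were present for 222 genes, from 7 of 30 leukocyte genes to 25 of 28 housekeeping genes.

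For the labelled tissues 3 marker genes each were looked up: 19 of 24 had a peak of both lists of their tissue within 2 kb of a TSS, and each tissue had at least 2. PLIN1 in adipose, TBR1 in cerebral cortex, OTP in hypothalamus, ALB in liver and AGER in lung did not. As 54.7% of all coding genes had peaks of both lists of all 8 tissues, such a peak says little about a label. The cerebellum marker CBLN1 had peaks in every tissue except skeletal muscle. Lists held 99960 to 217308 peaks, and the numbers of reads behind them were not used here. Members were 219 to 8291 bp wide (median 2037 bp), and in 7028 (72.1%) one stretch was shared by at least 14 lists, whereas the others were chained from peaks that did not all overlap. That share was 81.9% where adipose was lacking and 41.4% where cerebral cortex was.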

How the data were processed

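ATAC-seq was made from thawed nuclei of 8 tissues of 2 pigs. According to the methods and the submitters' processing notes, the authors trimmed reads with Trim Galore 0.4.5, aligned them to Sscrofa11.1 with BWA 0.7.17, filtered with SAMtools 1.10, removed duplicates with Picard 2.18.17 and called broad peaks per library with MACS2 (q 0.05). The deposited lists give fold enrichment as a ratio and -log10 q-values. The files hold no read numbers, those in the study's supplement were not used here, and broad calling can join neighbouring peaks.

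Peaks were merged with Python 3 scripts (numpy, pandas), placed by the RefSeq annotation of Sscrofa11.1, to which all 270 sequence names of the lists matched, and described in 300 bp windows. Differences over tissues used exact two-sided sign-flip tests, Benjamini-Hochberg adjusted over 11 tests (threshold 0.05, smallest raw p 0.00781), checked on simulated data. With either list, each animal alone or the block, some differences could not be computed. Adjustment there ran over fewer tests, so those adjusted p-values are not on the same footing as the main ones. The test of which animal held the peak rests on values that chose the members and is given without a p. The 15 cattle lists were not used. The members, lists and tests were chosen with earlier results of these data known. Named genes were, per missing tissue, up to 3 with the highest minimum fold, and all listed or marker genes with a closed promoter. Named regions were, per missing tissue, that with no peak there and the highest minimum fold outside exons and beyond 2 kb of a coding TSS. The numbers P348 and P350 mark the same animals in every tissue, so they pair the libraries. Over 28 tissue pairs, the deviations of same-animal libraries correlated from -0.24 to 0.17 (median 0.00). Alternatives were other q-value limits, equal list lengths, merging within 500 bp, autosomes only, either list, each animal alone, the animals as a block and a 500 bp TSS distance. Alternatives chosen after seeing the data were leaving out cerebellum P348 or skeletal muscle P350, requiring a stretch shared by 14 lists, and regions beyond 2 kb of a TSS.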

Additional observations from a re-analysis of the deposited data

Results flagged for a closer look

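Over the 8 tissues, 8 measures of the members were examined for 1 tissue standing far from the others, which chance gives for about 5% of such groups. Members lacking skeletal muscle stood apart in 2 of them. Repeat-masked bases filled 15.4% of their 300 bp windows, against 8.44% in the members lacking any other tissue. By number of open tissues, the mean was 21.3% in 1-tissue, 13.1% in 2-tissue, 10.8% in 6-tissue and 8.09% in 8-tissue regions. The value for muscle thus lay within the range of these classes of open regions. Among members lacking muscle, the share was 19.3% where neither muscle list held a peak and 11.6% where 1 did. It was 14.6% without unplaced scaffolds. Unplaced scaffolds held 6.83% of them (167 of 2446, on 53 scaffolds), against 2.78% of all members, 1.59% of the 8-tissue regions and 1.45% of all open regions. Of these 167 members, 99 had no peak in either muscle list. The parts of repeats and of assembly in the missing muscle peaks were not tested.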

How the results depend on the processing

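The number of members, 9747, was 5479 with peaks of q under 0.01, 3572 with q under 0.0001, 25360 when either list made a tissue open and 9664 to 15472 when libraries were left out. Animals as a block, with regions made within each animal, gave 14702 members, 13.9% of them TSS proximal, and 1330 closed genes, the members' excess over 6-tissue regions in TSS share was then 4.50 points (exact sign-flip test, adjusted p = 0.00911) and the CTCF difference from 8-tissue regions -0.62. The block changed no other call of the differences it was run for; those between members without and with a peak and the ratio between animals were not run. The TSS proximal share, 20.6%, was 39.6% with q under 0.01, 61.4% with q under 0.0001, 35.1% with equal lists, 7.51% with either list, 18.3% within 500 bp, 23.4% with a stretch shared by 14 lists and 12% to 19.5% when libraries were left out. The 199 closed genes were 412 with q under 0.0001 (3 of the 199 among them), 394 with equal lists (74 shared), 937 with either list (195 shared) and 219 to 1561 when libraries were left out. With q under 0.01 the 265 closed genes held 30 of the 199.

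With q under 0.0001, where cerebral cortex was lacked by 1 member, the differences of TSS share from 1-tissue regions (35.96) and 8-tissue regions (-39.76), of GC from both (8.76 and -5.53) and of CTCF from 1-tissue regions (4.58) kept direction and did not pass, and the GC difference beyond 2 kb (-1.61) did not either. The TSS difference from 6-tissue regions passed with equal lists (7.72), either list (3.0) and leaving out libraries (4.08 to 4.90, the lowest without skeletal muscle P350, which did not pass), and the difference between members without and with a peak passed with a shared stretch (-8.48). The CTCF difference from 8-tissue regions was -2.81 with either list, -0.98 to 1.22 without libraries and -5.06 beyond 2 kb. That between members without and with a peak was -7.03 with q under 0.01, -2.77 with q under 0.0001, -5.73 with equal lists, -4.66 with a shared stretch (which passed, as did equal lists, exact tests, adjusted p = 0.0246 and 0.0172) and -0.39 beyond 2 kb. The cause was not tested. With q under 0.0001, 2 tissues had no members on one side. Cerebellum was missing most often except with either list, without P348, without cerebellum P348 and under the block, where skeletal muscle was (39.9%, 41.0%, 28.5% and 30.2%). Read depth, which the lists do not hold, was not set beside a missing peak.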

Other observations

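Some genes and loci held several members lacking the same tissue. They were chosen after their values were seen, from 31 pairs of gene and tissue with at least 4 such members, and no test was made. Lacking a tissue here includes a peak in 1 of its 2 lists. Of all 2928 members lacking cerebellum, 2205 had a peak in cerebellum P350 only, and this was not counted by gene or locus. Of all members, 25.1% lacked skeletal muscle, 30% cerebellum and 15% spleen. AGBL4, a carboxypeptidase that acts on tubulin, spans 1263 kb of chromosome 6 and held 8 members, and all 8 lacked skeletal muscle. DSCAM, a cell adhesion molecule of neurons, held 8 members of which 7 lacked muscle, and 6 of 8 members in both DLGAP2, a scaffold protein of the postsynapse, and SNTG1, a syntrophin of neurons, did so. KIT, the stem cell factor receptor, held 5 members, and 4 of them lacked muscle. Members lacking cerebellum made up 6 of 7 in ABR, 5 of 5 in GNG7, a G protein gamma subunit, and 4 of 4 in LITAF and NPRL3. Among runs with gaps of at most 50 kb, the longest lacked skeletal muscle, with 14, 13 and 9 members on unplaced scaffolds. Runs of 7 members lacking skeletal muscle lay on chromosome 15 and on an unplaced scaffold. Runs of 7 members lacking cerebellum lay at the NPRL3 and alpha-type globin locus (HBM, HBZ and HBQ1) and at GNG7. Another lay in 161 kb of chromosome 12 that held RPL38 and other coding genes. Spleen was lacking in 5 of 5 members of SH3PXD2A, a scaffold protein of podosomes, and in 4 of 8 of FHOD3, a formin of heart muscle.

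Of the 37 promoters closed in spleen, 9 (24.3%) were on chromosome X, against 3.69% of all coding genes and 13 of the 199 closed promoters in all tissues. Among them were BEX1, ARMCX1, TSPAN7, SHROOM4, PCDH11X, NHSL2 and CHRDL1, with lowest folds from 2.60 to 3.49. These genes were named after their values were seen. Promoters closed in adipose were on X in 2 of 17 (11.8%), those closed in cerebellum in 2 of 62 and those closed in skeletal muscle in 0 of 78. Of all members lacking spleen, 2.80% were on X, and of those lacking adipose 2.61%. The share was 1.56% of all members and 1.96% of all open regions.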
